A study of Homo sapiens with 4 samples.

Results

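Metallothioneins are small, cysteine-rich proteins that bind zinc and copper, and also toxic metals such as cadmium. Metals switch their genes on through MTF1, a zinc-sensing transcription factor that binds metal response elements in their promoters, and glucocorticoids induce some of them as well. MT2A and MT1X are made in many epithelial and carcinoma cells, while other MT1 genes are often silent, and DNA methylation of their promoters has been studied in tumours. The genes described here were the 8 metallothionein symbols MT1A, MT1E, MT1F, MT1G, MT1M, MT1X, MT2A and MT1L, chosen by name out of 26506 genes in each table. All 8 were listed in both tables. MT1L is annotated as a transcribed pseudogene, and the other 7 genes code for protein.

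The cells were HeyC2 and SKOV3, established human ovarian cancer cell lines. TET1 is an enzyme that oxidises methylated cytosine and so takes part in DNA demethylation. TET1-reprogrammed cells had received 3 µg of the pCMV6/TET1 plasmid, in which TET1 is driven by a viral promoter, and control cells, labelled wild-type, had received the empty plasmid. All 4 groups were transfected with lipofectamine and kept in 400 µg/ml Geneticin, and whether the selected cells were pools or single clones is not given in the sources used here. RNA from each line and condition was sequenced as 1 library, so there are 4 libraries, no replicates and no test between conditions, and a difference between conditions cannot be told apart from a difference between cultures or selections. In such bulk RNA, fewer expressing cells and less RNA per cell cannot be told apart either.

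The deposited values were FPKM (fragments scaled to transcript length and to library size), and those of each TET1-reprogrammed library carried a constant, 3.23 in HeyC2 and 1.35 in SKOV3, that set GAPDH equal to its control value. Levels are therefore given as TPM, each library of length-scaled values brought to the same sum. Changes are given as relative log2 change, which is log2 of the ratio of FPKM plus 1, less the median of all genes tested in the line (1.61 in HeyC2 and 0.59 in SKOV3). A gene was tested when its mean FPKM in the line was at least 1, and was called higher or lower when its relative change was at least 1.5-fold. The depth, estimated from the steps between low FPKM, was 6660000 to 7500000 fragments per library. TET1 itself stood at 0.414 TPM in the HeyC2 control and 1.03 TPM in TET1-reprogrammed HeyC2. It stood at 0.909 TPM in the SKOV3 control and 3.95 TPM in TET1-reprogrammed SKOV3. Its level was thus higher in the TET1-reprogrammed library of both lines, by 2.48-fold and 4.34-fold, but low throughout. In HeyC2, at 0.2 and 1.68 FPKM as deposited, TET1 did not pass the filter. In SKOV3 its relative log2 change was 0.67, a call lost in 1 of 8 alternative settings (0.46).

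The 8 genes lie together on chromosome 16, within 75.6 kb (GRCh37, GENCODE positions). MT2A is at chr16:56642496-56643409, followed by MT1L at chr16:56651475-56652592 and MT1E at chr16:56659387-56661024. MT1M is at chr16:56666571-56667893, MT1A at chr16:56672578-56673999 and MT1F at chr16:56691643-56694610. MT1G, the only one of the 8 on the minus strand, is at chr16:56700642-56701977, and MT1X closes the cluster at chr16:56716382-56718108. Their transcripts are much alike. MT1E and MT1L were 94.6% identical over 186 aligned bases, MT1E and MT1M 92.7% over 331, and MT1X and MT2A 83.7% over 326. The longest exact run shared by any pair was 96 bases, in MT1G and MT1X, which is shorter than the 150-base reads. How the quantification shared reads among these genes was not tested, so the summed level is given beside the single genes.

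The promoters show which regulatory letters the 2 members found in the RefSeq promoter table carry, next to a family gene that was listed at 0 in all 4 libraries. The windows are the 250 bases before the start site on the plus strand (RefSeq, GRCh38.p14), at chr16:56608334-56608583 for MT2A, chr16:56682220-56682469 for MT1X and chr16:56669564-56669813 for MT1H. Capitals mark the metal response element core, searched as TGCACNC and TGCGCNC on both strands. The other 6 members were not in the table.
MT2A: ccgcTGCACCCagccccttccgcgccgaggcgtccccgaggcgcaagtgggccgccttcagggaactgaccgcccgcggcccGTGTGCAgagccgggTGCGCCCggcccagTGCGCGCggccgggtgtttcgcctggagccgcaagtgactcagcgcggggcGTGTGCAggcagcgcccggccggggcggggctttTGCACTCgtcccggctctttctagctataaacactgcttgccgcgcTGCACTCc
MT1X: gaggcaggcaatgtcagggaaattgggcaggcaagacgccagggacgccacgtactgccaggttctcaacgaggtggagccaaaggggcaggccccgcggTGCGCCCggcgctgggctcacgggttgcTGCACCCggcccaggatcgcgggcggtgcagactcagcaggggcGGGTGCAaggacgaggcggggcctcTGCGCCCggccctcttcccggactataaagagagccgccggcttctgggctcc
MT1H: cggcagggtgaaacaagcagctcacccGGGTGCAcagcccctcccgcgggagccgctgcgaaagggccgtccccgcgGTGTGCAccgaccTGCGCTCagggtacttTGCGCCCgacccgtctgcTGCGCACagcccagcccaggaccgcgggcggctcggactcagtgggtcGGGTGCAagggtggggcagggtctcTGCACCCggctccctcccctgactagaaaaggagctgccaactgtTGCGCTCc

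MT2A held 7 cores in this window and MT1X held 4, against at least 1 core in 24.8% of 35116 promoters of the same length. As many cores as in MT2A were found in 0.0313% of promoters, and as many as in MT1X in 0.37%. Of the 3 other family genes in the table, MT1H, at 0 in every library, held 8 cores, MT4, also at 0 in every library, held 3, and MT1B, above 0 only in the SKOV3 control, held 3. MT2A also held 32 CpG sites, MT1X and MT1H 22 each, and the median promoter 11. TATAAA, the TATA box letters, occurred once in MT2A and once in MT1X, but not in MT1H, and in 10.7% of all promoters. TGACTCA, the AP-1 site, occurred in MT2A and not in MT1X or MT1H, and in 4.20% of all promoters. These are letter matches in the reference sequence, and neither binding nor methylation was measured in the data used here.

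MT2A, the main metallothionein of many human cells, was among the most abundant transcripts of HeyC2. Its level was 14117 TPM in the HeyC2 control and 15920 TPM in TET1-reprogrammed HeyC2, ranks 2 and 1 among all genes of those libraries. In SKOV3 it was 2764 TPM in the control and 1432 TPM in the TET1-reprogrammed cells, ranks 26 and 81. Both HeyC2 libraries therefore lay above both SKOV3 libraries, by 5.11-fold between controls and 11.1-fold between TET1-reprogrammed cells. Within HeyC2 the levels differed by 1.13-fold (95% counting interval 1.10 to 1.16), and within SKOV3 the TET1-reprogrammed level was 0.518 times the control level (0.478 to 0.561). These intervals rest on the estimated fragments, 11290 and 12925 in HeyC2 and 2092 and 884 in SKOV3 at the shortest coding transcript. They cover counting error only and not the spread between cultures.

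MT1X, the other member with a sizeable level in every library, was far less abundant than MT2A. It stood at 589 TPM in the HeyC2 control and 609 TPM in TET1-reprogrammed HeyC2, a ratio of 1.03 (0.910 to 1.17). In SKOV3 it stood at 120 TPM in the control and 169 TPM in the TET1-reprogrammed cells, a ratio of 1.41 (1.06 to 1.89). The HeyC2 levels again lay above the SKOV3 levels, by 4.90-fold and 3.60-fold. In SKOV3, MT1X and MT2A thus pointed in opposite directions on the TPM scale.

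MT1E, an inducible MT1 gene, separated the lines most clearly among the coding members. Its level was 403 TPM in the HeyC2 control and 1518 TPM in TET1-reprogrammed HeyC2, a ratio of 3.77 (3.24 to 4.38). In SKOV3 it was 3.53 TPM in the control and 1.96 TPM in the TET1-reprogrammed cells. Those SKOV3 levels correspond to about 2 and 1 fragments at the shortest coding transcript and 7 and 3 at the longest, and their ratio of 0.554 has a counting interval of 0.0109 to 12.3. A direction for MT1E in SKOV3 was not detectable at this depth. HeyC2 stood 114-fold above SKOV3 between controls and 776-fold between TET1-reprogrammed cells.

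MT1L, the transcribed pseudogene next to MT1E, had the same order of libraries in HeyC2. It stood at 684 TPM in the HeyC2 control and 2243 TPM in TET1-reprogrammed HeyC2, a ratio of 3.28. In SKOV3 it stood at 1.14 and 1.27 TPM. The ratio of MT1L to MT1E was 1.70 and 1.48 in the HeyC2 libraries. Since the pair is so alike in sequence, their summed level is given too. That sum was 1087 and 3761 TPM in HeyC2 and 4.67 and 3.23 TPM in SKOV3.

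MT1A, MT1G and MT1M, which lie in the middle of the cluster, were listed at 0 in all 4 libraries. MT1F was listed at 0 in both HeyC2 libraries and in TET1-reprogrammed SKOV3, and at 3.28 TPM, about 3 fragments, in the SKOV3 control. The counting interval of its TET1 to control ratio in SKOV3 runs from 0 to 2.94. With 3 fragments as the limit that a count of 0 allows, and at the longest coding transcript, these 4 genes could still have stood at up to 3.36 to 4.98 TPM. Expression below that level was not detectable at this depth. For shorter coding transcripts, which reach down to 232 bases in MT1M and 305 bases in MT1G, the limit lies higher.

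**Figure D1:**
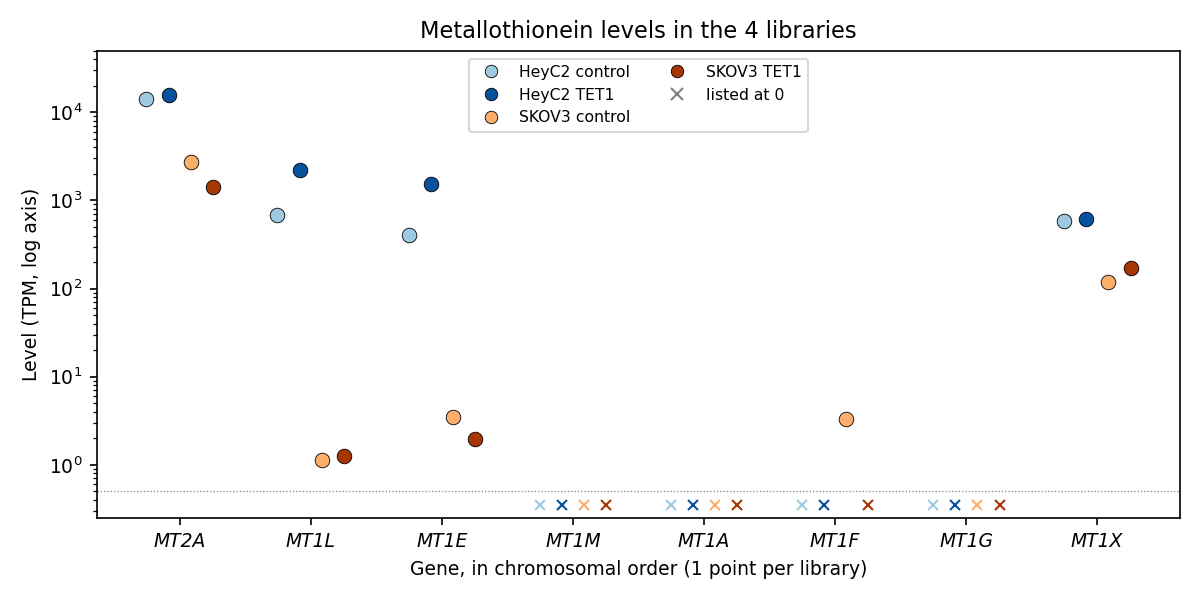
Level of each metallothionein (TPM, log axis) in each of the 4 libraries, 1 point per library, with the genes in chromosomal order and crosses for values listed at 0. MT2A lies between 1432 and 15920 TPM and MT1X between 120 and 609 TPM, whereas MT1E and MT1L are above 400 TPM in HeyC2 and below 4 TPM in SKOV3.

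Added up, the 8 genes gave 15793 TPM in the HeyC2 control and 20290 TPM in TET1-reprogrammed HeyC2. They gave 2892 TPM in the SKOV3 control and 1604 TPM in TET1-reprogrammed SKOV3. Metallothioneins thus made up 1.58% and 2.03% of all TPM in the HeyC2 libraries, and 0.289% and 0.160% in the SKOV3 libraries. These are shares of length-scaled values and not of sequenced fragments. The TET1-reprogrammed sum was 1.28 times the control sum in HeyC2 and 0.555 times in SKOV3. The distance between the lines was accordingly 5.46-fold between controls and 12.6-fold between TET1-reprogrammed cells.

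The make-up of the sum differed as well. MT2A supplied 89.4% of it in the HeyC2 control and 78.5% in TET1-reprogrammed HeyC2, where MT1E and MT1L together supplied the larger remainder. The share of MT1E was 2.55% in the HeyC2 control and 7.48% under TET1, and that of MT1L was 4.33% and 11.1%. In SKOV3, MT2A supplied 95.6% in the control and 89.3% under TET1, and MT1X 4.16% and 10.5%. MT1X made up 3.73% and 3.00% in HeyC2. The larger share of MT1X in TET1-reprogrammed SKOV3 went with the lower level of MT2A, 1432 against 2764 TPM, as MT1X itself was at 169 against 120 TPM and was not called.

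**Figure D2:**
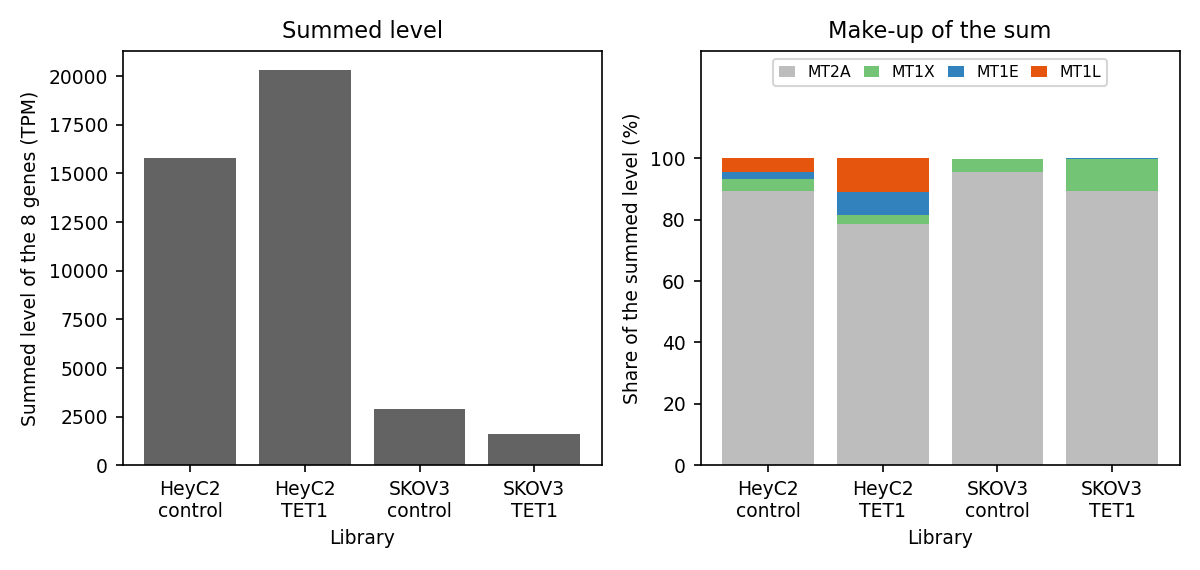
Left, summed level of the 8 metallothioneins (TPM, 1 bar per library, axis from 0); right, the percentage of that sum supplied by each gene. The sum is 15793 and 20290 TPM in HeyC2 and 2892 and 1604 TPM in SKOV3, and the part outside MT2A is mostly MT1E and MT1L in HeyC2 and MT1X in SKOV3.

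To ask how the genes differed between TET1-reprogrammed and control cells of each line, the relative change was used, with all genes of the line as background. In HeyC2, 4 of the 8 members passed the filter on low values, and the other 4 were at 0 in both libraries. MT1E and MT1L were called higher, with a relative log2 change of 2.06 and 1.86, and 99.4% and 99.2% of the 12993 genes tested lay below them. MT2A, at 0.33, and MT1X, at 0.20, were called in neither direction. Called higher were 2 members and lower 0, against 13.0% and 12.9% of all genes tested. The median of the 4 was 1.09, beside 0 over all genes by construction.

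In SKOV3, 3 of the 8 members passed the filter, 3 were at 0 in both libraries, and MT1F and MT1L were below it. MT2A was called lower, with a relative log2 change of -1.16, and 4.48% of the 13339 genes tested lay below it. MT1E was also called lower, at -0.87, but on the few fragments given above. MT1X, at 0.27, was called in neither direction. Called lower were 2 members and higher 0, against 17.9% and 20.6% of all genes tested, and the median of the 3 was -0.87. A member that passed the filter through the library where it was high had to differ, so these counts are descriptions.

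Set side by side, MT2A had a relative log2 change of 0.33 in HeyC2 and -1.16 in SKOV3. The relative log2 change in HeyC2 exceeded that in SKOV3 by 1.49 for MT2A, and 96.3% of the 11888 genes tested in both lines had a smaller difference. For MT1X the difference was -0.07. For MT1E it was 2.93, but the counting interval of its SKOV3 ratio (0.0109 to 12.3) contains its HeyC2 ratio of 3.77, so a difference between the lines was not detectable at this depth. Of the 3 members tested in both lines, 1 (MT1E) was called higher in HeyC2 and lower in SKOV3, against 2.08% of all genes. None was called lower in HeyC2 and higher in SKOV3 (2.31% of all genes), lower in both (2.73%) or higher in both (3.58%). The sum of the 8 genes had a relative log2 change of 0.51 in HeyC2, short of a call, and of -1.06 in SKOV3, a call. Across the alternatives other than leaving out the centring, the HeyC2 value ran from 0.34 to 0.66. It was past the 1.5-fold limit only with no filter on low values.

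**Figure D3:**
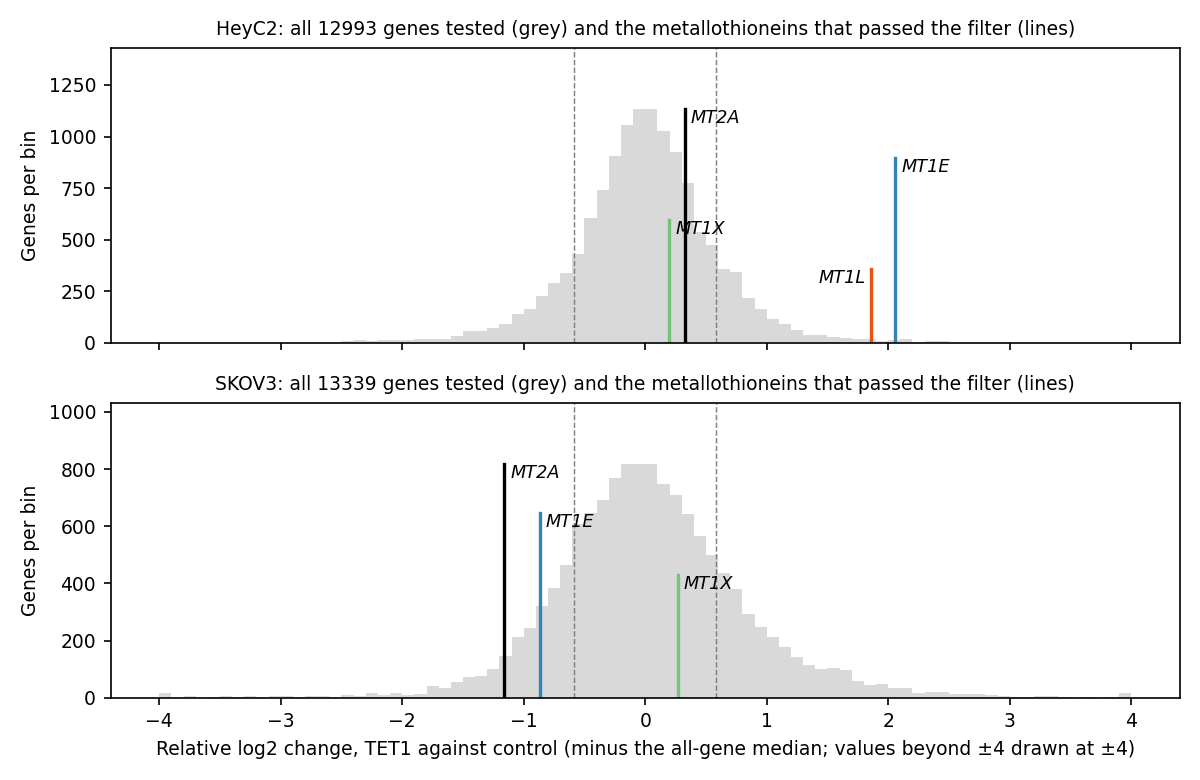
Number of genes per bin of relative log2 change, TET1-reprogrammed against control, for HeyC2 (top) and SKOV3 (bottom), with values beyond 4 drawn at 4 and the metallothioneins that passed the filter as labelled lines (their height has no meaning) and dashed lines at the limits of a call. MT1E and MT1L stand in the upper tail in HeyC2 at 2.06 and 1.86, MT2A in the lower tail in SKOV3 at -1.16, and MT1X near the centre of both.

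Other family genes added little. Of 13 further symbols, 9 were in the tables, and all 9 were at 0 in both HeyC2 libraries. In SKOV3, 7 were at 0 in both libraries, and MT1B, a metallothionein gene of the same cluster, stood at 5.54 TPM in the control, about 3 fragments, and at 0 in the TET1-reprogrammed library. It passed the filter through the control alone, so its relative change of -2.44, which ran from -8.70 to -1.86 over the alternatives, is a description. Of 5 regulators of metallothionein transcription, 1 was called lower in each line and none higher. MTF1, the metal-sensing activator, was called lower in HeyC2 at -0.92, with 8.39 TPM in the control and 4.37 TPM under TET1, whereas its relative change in SKOV3 was -0.14. Without subtracting the all-gene median, the sign of MTF1 in HeyC2 turned, to 0.69, while MT1E was higher either way. NR3C1, the glucocorticoid receptor, was called lower in SKOV3 at -0.65, a call lost in 3 of 9 alternatives (-0.72 to -0.46), and stood at 0.09 in HeyC2.

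Zinc transporters were next, since zinc is the metal that MTF1 senses. The counts of this and the following lists are to be read beside the shares of all genes called, 13.0% higher and 12.9% lower in HeyC2 and 20.6% higher and 17.9% lower in SKOV3. In HeyC2, 1 of 6 exporters that passed was called higher and none lower, and 2 of 11 importers were called higher and none lower. SLC30A1, the exporter that MTF1 itself controls, was called higher in HeyC2 at 0.66, a call lost in 1 of 9 alternatives (0.58), and stood at -0.55 in SKOV3. SLC39A4, the intestinal zinc importer ZIP4, was called higher in HeyC2 at 1.89 and lower in SKOV3 at -1.04. SLC39A10, another importer, was called higher in HeyC2 at 0.85.

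In SKOV3, 1 of 6 exporters was called lower, and the importers were called higher for 2 and lower for 2 of 11. SLC30A5, an exporter that loads zinc into the secretory pathway, stood at -0.78, and SLC39A8, an importer of zinc and manganese, at -1.47. None of 9 copper-handling genes was called in either line. Their medians were -0.16 in HeyC2 and -0.09 in SKOV3.

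Glucocorticoid-induced genes did not move as one group. Of 7 that passed, 2 were called higher and 1 lower in HeyC2, and 2 higher and 2 lower in SKOV3. DUSP1, a MAP kinase phosphatase, was called higher in HeyC2 at 1.78 and lower in SKOV3 at -2.98. SGK1, a kinase of ion transport, stood at 1.47 and -0.63, and its SKOV3 call was lost in 3 of 8 alternatives (-0.82 to -0.36). TSC22D3 (GILZ), which mediates anti-inflammatory glucocorticoid effects, was called higher in SKOV3 at 2.63, and KLF9, a transcription factor, at 1.79. KLF9 had 0.56 FPKM in the SKOV3 control and 7.09 FPKM under TET1. It passed the filter through the TET1-reprogrammed library alone, so its call is a description.

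Genes induced by metal stress were counted next. Of 10, 2 were called higher and 5 lower in HeyC2, against 13.0% and 12.9% of all genes tested, and 1 higher and 6 lower in SKOV3, against 20.6% and 17.9%, with medians of -0.46 and -0.76. The list includes SLC30A1, named above. HMOX1, which breaks down haem, was the one called higher in both lines, at 0.75 and 0.91. The heat shock genes HSPA1A and HSPA1B, near-identical copies whose separate values are uncertain, were lower in both, at -0.75 and -0.82 in HeyC2 and -1.22 and -1.08 in SKOV3. SLC7A11, the cystine importer, was lower at -2.11 and -1.58, TXNRD1, thioredoxin reductase, at -1.30 and -1.19, and GCLM, of glutathione synthesis, at -0.59 and -0.74. The GCLM call was borderline, being lost in 5 of 9 alternatives in HeyC2 (-0.64 to -0.43) and in 1 of 9 in SKOV3 (-0.86 to -0.54). Without subtracting the all-gene median, HSPA1A, HSPA1B, TXNRD1 and GCLM turned sign in HeyC2, to between 0.31 and 1.02.

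Iron genes were given beside them because ferritin is likewise a metal store. Of 7, 2 were called higher and none lower in HeyC2, and 2 higher and 2 lower in SKOV3. FTH1, the ferritin heavy chain, had 4122 and 13253 TPM in HeyC2 and 17534 and 11707 TPM in SKOV3, a relative log2 change of 1.84 and -0.80, and its SKOV3 call was lost in 1 of 9 alternatives (-0.87 to -0.46). TFRC, the transferrin receptor, stood at 0.84 and -1.50. SLC40A1, the iron exporter ferroportin, was called higher in SKOV3 at 0.97. It had 0.18 FPKM in that control and 2.48 FPKM under TET1, and passed the filter through the TET1-reprogrammed library alone, so its call is a description.

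**Figure D4:**
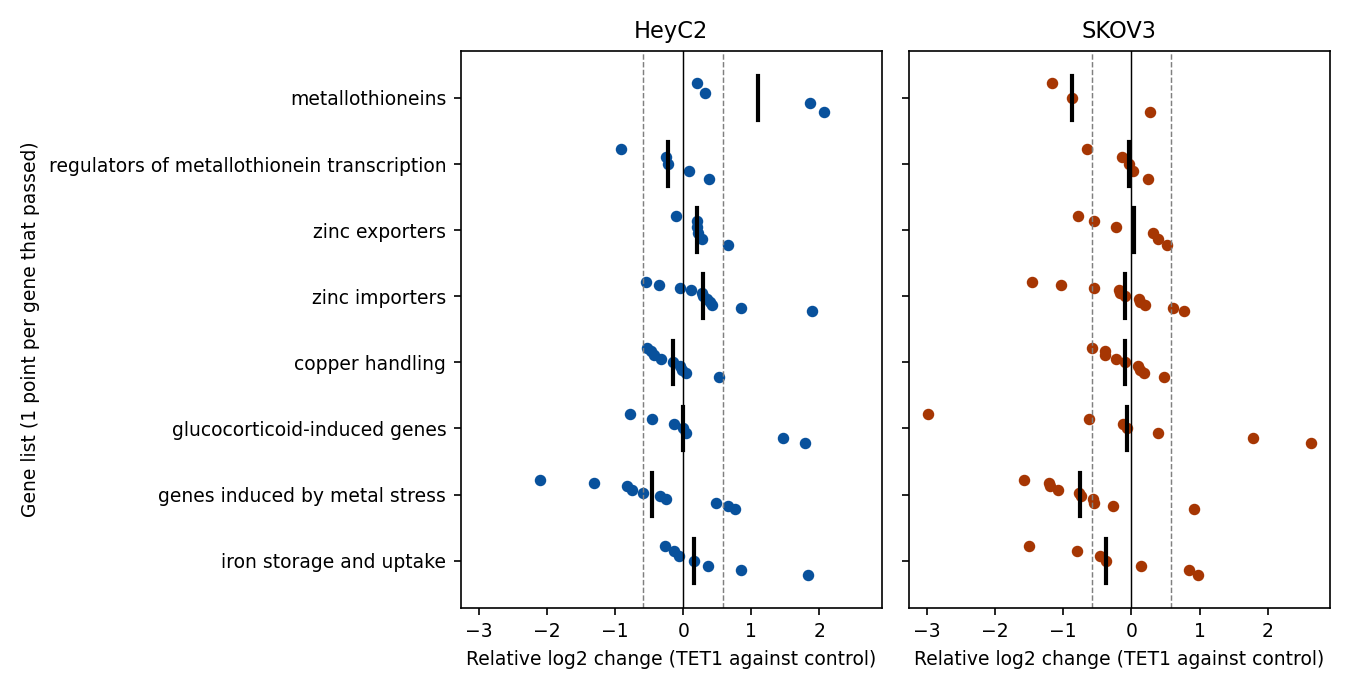
Relative log2 change (TET1-reprogrammed against control) of every gene that passed the filter in each gene list, 1 point per gene, with the list median as a black bar and the limits of a call as dashed lines, HeyC2 left and SKOV3 right. The metal stress genes lie mostly below 0 in both lines, with medians of -0.46 and -0.76, and the copper genes all lie inside the limits of a call.

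Chromosomal neighbours were listed beside the cluster. Of 28 protein-coding genes starting within 1 Mb of it and matched by symbol, 17 passed in HeyC2, where 4 were called higher and none lower, with a median of 0.30 and a highest value of 1.04 in PLLP, a myelin-associated membrane protein. MT1E (2.06) and MT1L (1.86) both exceeded every neighbour tested in HeyC2, whereas MT2A (0.33) and MT1X (0.20) lay within the neighbours' range of -0.20 to 1.04. In SKOV3, 18 passed, 4 were called higher and 2 lower, and the median was -0.15. BBS2, a ciliary protein gene close to the cluster, was called higher in both lines, at 0.61 and 0.64. In HeyC2, however, its call was lost in 7 of 9 alternatives (0.46 to 0.75). ADGRG1, an adhesion receptor, was called higher in SKOV3 at 2.60, and SLC12A3, a sodium chloride transporter, lower at -2.46. SLC12A3 had 3.22 FPKM in the SKOV3 control and 0.15 FPKM under TET1. It passed the filter through the control alone, so its call is a description.

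**Figure D5:**
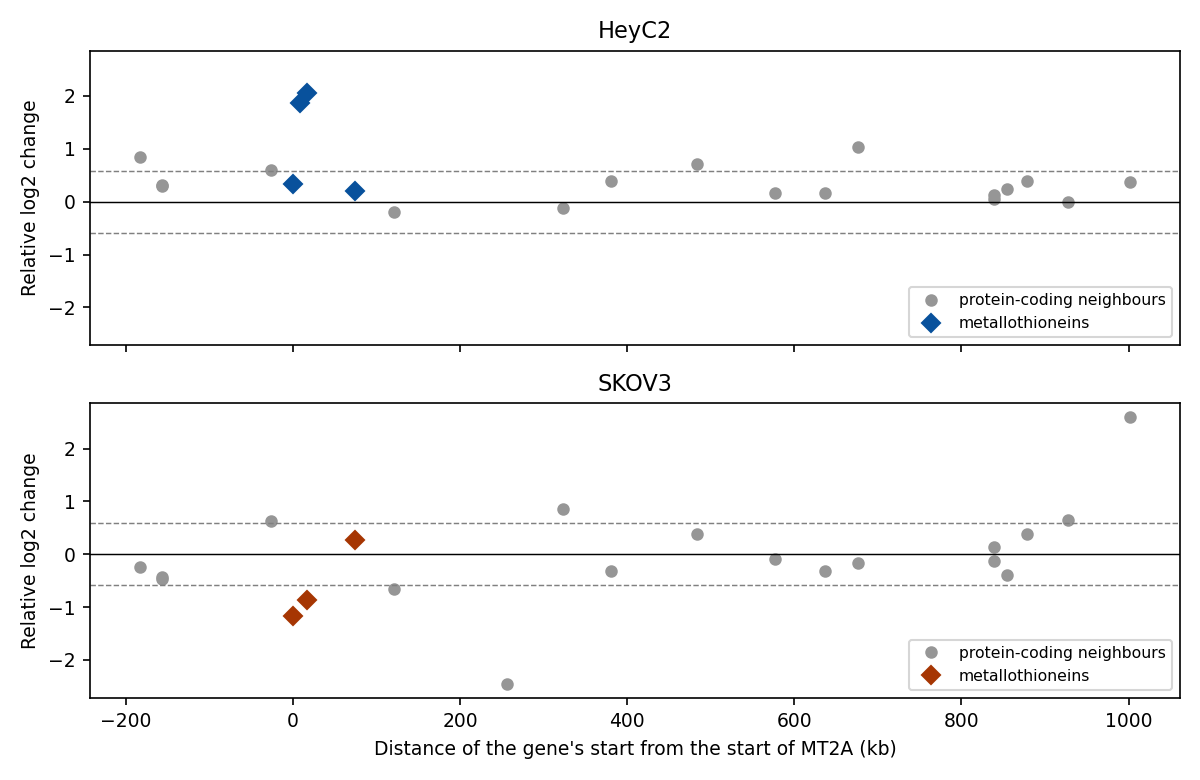
Relative log2 change against the distance of each gene's start from the start of MT2A (kb), for protein-coding neighbours (circles) and metallothioneins (diamonds) that passed the filter, with dashed lines at the limits of a call. In HeyC2 MT1E and MT1L stand above all neighbours, of which PLLP is highest at 1.04, and in SKOV3 MT2A and MT1E lie among the lower values.

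The genes closest to MT2A in pattern were found by the Euclidean distance between log2(TPM + 1) profiles over the 4 libraries, each centred on its own mean, among 14231 genes. CTGF, a secreted matrix protein of the YAP pathway, was nearest at 0.16, with 1178 and 1309 TPM in HeyC2 and 205 and 123 TPM in SKOV3. GAS6-AS2, PID1, PGF and JPH2 followed at 0.17, 0.20, 0.20 and 0.23. In SKOV3 these genes stood low, GAS6-AS2 at 1.86 and 0.750 TPM and PID1 at 1.71 and 0.261 TPM. There PGF stood at 1.37 and 0.391 TPM, and JPH2 at 3.07 and 0.848 TPM. At such levels the 1 added to TPM damps differences, so their nearness is less certain than that of CTGF. MT1X lay at 1.33, at rank 343 in nearness to MT2A. With 4 libraries that share 2 lines, such a distance is a description only.

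The labelled cell type was checked against markers. KRT8, KRT18, KRT19 and PAX8 stood above 1 TPM in every library, 4 of 8 epithelial carcinoma markers. CDH1 was at 0 in both HeyC2 libraries, and MUC16 was below 1 TPM in all 4. EPCAM stood at 0.187 and 0.752 TPM in HeyC2, against 32.5 and 35.3 TPM in SKOV3. WT1 was at 0 except in TET1-reprogrammed SKOV3, at 1.16 TPM. Markers of other cells also differed between conditions. The 3 mesenchymal markers summed to 27107 and 11049 TPM in HeyC2 and 2700 and 1993 TPM in SKOV3. The 4 fibroblast markers summed to 4.44 and 5.91 TPM in HeyC2 and 0.952 and 66.6 TPM in SKOV3, mostly COL1A1, with PDGFRB at 0 in SKOV3. The 3 endothelial markers summed to 40.1 and 187 TPM in HeyC2, almost all CDH5, with PECAM1 and VWF below 1 TPM, and to 0.550 and 0.799 TPM in SKOV3. The 4 leukocyte markers summed to 0.654 to 1.99 TPM, with CD3E at 0 throughout. KRT19 stood at 539.5 TPM in the SKOV3 control and 1.01 TPM in TET1-reprogrammed SKOV3. The part of any of these in the metallothionein values was not tested.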

How the data were processed

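RNA-seq libraries from HeyC2 and SKOV3 cells, TET1-reprogrammed or empty-plasmid control, were analysed, with 1 library per group. According to the labels, total RNA was prepared with TruSeq kits, sequenced as paired 150-base reads, and aligned to hg19. The submitters' processing notes name Bowtie2 2.2.6 and RSEM 1.2.17. The annotation is not given in the sources used here. The FPKM values were deposited by the authors, 1 table per line. The constant in each TET1 column was recovered from the value steps (it placed 99.9% and 99.8% of the distinct low values on whole steps). Depth was estimated likewise, with 49.7% to 59.2% of the low values checked within 0.1 of a whole fragment, so fragment numbers are approximate.

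The relative log2 change was computed with a pseudocount of 1 FPKM and a mean of at least 1 FPKM. Since the all-gene median is subtracted after the pseudocount is added, the relative change of a low gene is drawn towards minus that median. Abundant genes are shifted slightly upwards, as for MT2A in HeyC2, at 0.33 against 0.15 with a pseudocount of 0.01 FPKM. No test was run, since no group has a replicate. The scripts were tested on simulated data. Gene symbols were matched to GENCODE (22638, or 85.4%). Named are the 8 members, TET1, GAPDH, MTF1 and the 5 genes nearest to MT2A. List genes called in both lines are named too, as are at most 3 called genes per list with the largest absolute change. These 2 choices can overlap, so other called list genes go unnamed. Members and lists were chosen with earlier results of these data known. Counting intervals are exact (Clopper-Pearson, 95%). Alternatives were other pseudocounts, filters, scalings, centrings and call limits. With upper-quartile scaling the all-gene median was not subtracted. Counts of calls lost take in that setting, and leave out the one without centring and the other call limits. Python 3.11.15, numpy 2.4.6, pandas 2.3.3, matplotlib 3.10.9 and biopython 1.88 were used.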

Additional observations from a re-analysis of the deposited data

Results flagged for a closer look

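Genes called higher in 1 line and lower in the other are listed here, with the relative log2 change in HeyC2 first and SKOV3 second. The difference was not tested, since each condition has 1 library. Among the metallothioneins this was MT1E, at 2.06 and -0.87, where the SKOV3 value rests on at most 7 estimated fragments and its direction was not detectable at this depth. SLC39A4, the zinc importer, stood at 1.89 and -1.04. DUSP1 stood at 1.78 and -2.98, and SGK1 at 1.47 and -0.63. Of the iron genes, FTH1 stood at 1.84 and -0.80, and TFRC at 0.84 and -1.50. The SKOV3 call was lost in 3 of 8 alternatives for SGK1 and in 1 of 9 for FTH1.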

How the results depend on the processing

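No paired analysis was made within a line, since each line has 1 library per condition and the labels give no replicate numbers, and a fit over both lines with the line as a block, which would leave 1 residual degree of freedom, was not run. Across the alternatives other than leaving out the centring, the relative log2 change of MT1E in HeyC2 ranged from 1.89 to 2.21, of MT1L from 1.69 to 2.01, of MT2A from 0.15 to 0.47 and of MT1X from 0.03 to 0.34, and that of MT2A in SKOV3 from -1.23 to -0.82. Without centring, which keeps the GAPDH constant, HeyC2 had 4 members higher, a median of 2.70 and a summed change of 2.12, and SKOV3 had 1 higher and 0 lower, a median of -0.28 and a summed change of -0.48. In HeyC2 that setting also reversed MTF1 (0.69), GCLM (1.02), HSPA1A (0.86), HSPA1B (0.79) and TXNRD1 (0.31). With no filter on low values the summed change in HeyC2 was 0.66, past the limit of a call. In SKOV3, 1 member was lower with a mean of at least 5 FPKM (median -0.38), with upper-quartile scaling (median -0.50) and at a 2-fold limit, and 1 was higher at a 1.2-fold limit. The filter of 5 FPKM removes MT1E from SKOV3 by its construction. With upper-quartile scaling MT1E stood at -0.50 in SKOV3, inside the limit of a call. The 2-fold limit leaves out MT1E at -0.87, and the 1.2-fold limit just takes in MT1X at 0.27. Depth limits the 4 genes at or near 0, and MT1E and MT1L in SKOV3.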

Other observations

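The 5 genes nearest to MT1E in pattern, chosen after their values were seen and by the same distance as for MT2A, were ESM1 at 0.56, GPX3 at 0.64, PDPN at 0.71, AEBP1 at 0.71 and IGFBP4 at 0.92. ESM1, a secreted proteoglycan, had 172 and 498 TPM in HeyC2 and 0.507 and 0.555 TPM in SKOV3. GPX3, a secreted glutathione peroxidase, had 90.9 and 371 TPM in HeyC2 and 0.190 and 0.196 TPM in SKOV3. MT1L lay at 1.49, at rank 10 in nearness to MT1E. GAPDH, to which the deposited columns were scaled, had 11227 and 3311 TPM in HeyC2 and 4754 and 3668 TPM in SKOV3, a TET1 to control ratio of 0.295 and 0.771.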
